A study of Mus musculus with 8 samples.

Results

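The claudins described here are 10 genes chosen by name, *Cldn3*, *Cldn4*, *Cldn6*, *Cldn7*, *Cldn8*, *Cldn9*, *Cldn10*, *Cldn12*, *Cldn18* and *Cldn23*, which are claudins of epithelia, with the endothelial *Cldn5* left out. All 10 were found among the 24341 genes of the expression table. Of these, 7 had a mean of at least 0.5 FPKM over all libraries and were tested between genotypes together with every other gene that passed this filter, 13777 in all. *Cldn8*, *Cldn18* and *Cldn23* stayed under the filter and are given by their values.

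Claudins are small membrane-spanning proteins that polymerize into the strands of the tight junction, at the boundary between the apical and lateral surfaces of epithelial cells. Their extracellular loops meet those of the neighbouring cell and either seal the space between cells or form selective ion pores in it, and the C-terminal tail of most claudins binds PDZ domains of the ZO scaffold proteins. In the embryonic pancreas, tight junctions border the apical microlumens from which the ductal tree develops.

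Total RNA was measured in 8 individual pancreas buds at E11.0, at about 40 somites, after the mesenchyme had been pulled away with forceps. There were 5 WT buds and 3 buds with the genotype Pdx1Creearly;Lats1f/f;Lats2f/f, hereafter Lats1/2PanKO, all labelled with the strain CD1. The early Cre transgene is driven by the *Pdx1* promoter and acts in pancreatic progenitors, so that cells of other lineages in a bud keep the kinase genes *Lats1* and *Lats2*. Values are FPKM, fragments scaled to transcript length and to the mapped reads of the library, which allow levels of different genes to be set side by side.

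Each bud is a library of its own, and p-values measure the spread among these buds. Between 16117 and 16982 genes were above 0 in each library. As a check of the labels, *Lats1* was at 10.1 to 13.8 FPKM in Lats1/2PanKO and 14.1 to 16.6 FPKM in WT buds, without overlap, while the ranges of *Lats2* overlapped (11.1 to 13.4 against 11.6 to 14.7 FPKM). Both values cover whole genes, deleted and retained exons alike. The epithelial markers *Epcam* (31.4 to 136.5 FPKM) and *Cdh1* (21.1 to 94.9 FPKM) and the pancreatic factor *Pdx1* (9.96 to 48.5 FPKM) were present in all 8 buds. Markers of mesenchyme were also present, with a sum over 14 genes of 1011 to 1214 FPKM in WT and 856 to 1038 FPKM in Lats1/2PanKO buds. This sum includes *Vim*, at 361 to 481 FPKM in WT and 493, 464 and 602 FPKM in Lats1/2PanKO replicates 1 to 3. The sum was lowest, at 856 FPKM, in replicate 3. Of the 12 tested mesenchymal markers, 10 had a lower mean in Lats1/2PanKO, unlike *Vim*. In bulk samples like these, fewer cells of a type and less RNA per cell cannot be told apart. Lats1/2PanKO replicate 3 stood apart from the rest. The summed level of 16 epithelial markers that are not claudins was 1037 FPKM in this bud, 490 and 427 FPKM in the other Lats1/2PanKO buds and 220 to 279 FPKM in WT buds. Values with and without this bud are therefore given for each claudin.

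The mean level of all 7 tested claudins was higher in the Lats1/2PanKO buds, with log2 fold changes from 0.35 for *Cldn12* to 1.70 for *Cldn3* and a median of 1.16, against a median of -0.01 over all tested genes. For 5 of them, *Cldn3*, *Cldn4*, *Cldn6*, *Cldn7* and *Cldn10*, each Lats1/2PanKO bud lay above each WT bud, as did 4.46% of all tested genes. An unadjusted limma p under 0.05 with a higher level in Lats1/2PanKO was found for 6 of the 7, against 6.29% of all tested genes. After Benjamini-Hochberg adjustment over all tested genes, 0 of the 7 had a limma p under 0.05, against 0.0145% of all tested genes. All 7 had a mean above 0.5 FPKM in the WT buds alone, of which that of *Cldn9*, 0.615 FPKM, was the lowest. All fold changes are on the log2(FPKM + 1) scale, which understates the change of genes at low levels.

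**Figure D1:**
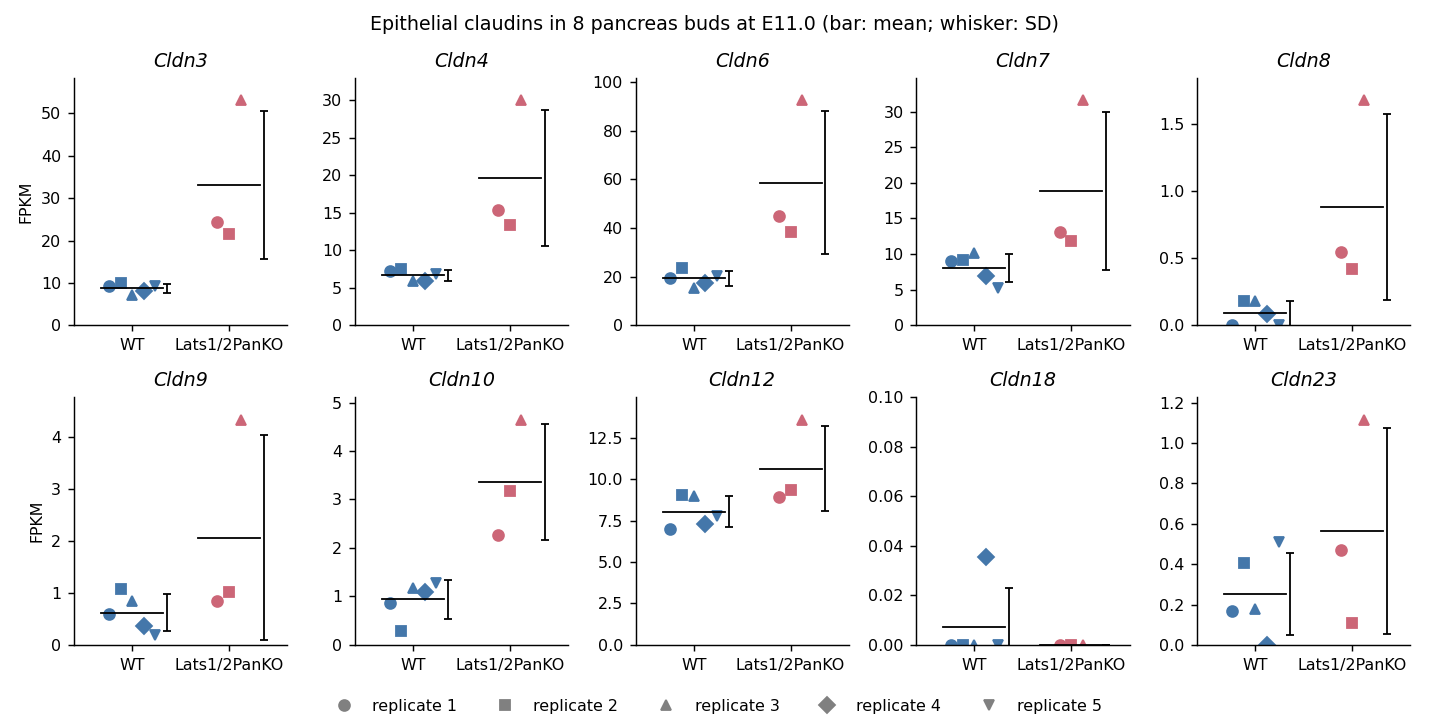
FPKM (y axis, a scale of its own in each panel) of the 10 claudins in 5 WT (blue) and 3 Lats1/2PanKO (red) buds, with marker shapes for replicate numbers, horizontal lines for group means and whiskers for the SD. Replicate 3 is the highest Lats1/2PanKO bud in 9 panels, and *Cldn18* is at 0 in all but 1 bud.

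*Cldn3* and *Cldn4*, which seal the space between cells and are known as the receptors of a clostridial enterotoxin, lie next to each other on chromosome 5, and *Cldn6*, a claudin of embryonic epithelia, lies beside *Cldn9* on chromosome 17. *Cldn7*, on chromosome 11, is a claudin that also occurs on basolateral membranes, where it binds EPCAM. These were the 4 claudins with the highest mean levels in Lats1/2PanKO buds. The 250 bases before an annotated start site of each, from RefSeq on GRCm38.p6 and read 5′ to 3′ on the strand of the gene, are shown because these genes carried most of the claudin level and shared the same order of the Lats1/2PanKO buds. Capitals mark matches, on either strand, to 5 short motifs, GGAATG (the core of the TEAD site), CAGGTG (an E-box bound by Snail and Zeb factors), AACCGG (the core of the grainyhead site), GGGCGG (the GC box of SP and KLF factors) and TGACTCA (the AP-1 site).
Cldn3, chr5:134985964-134986213, plus strand: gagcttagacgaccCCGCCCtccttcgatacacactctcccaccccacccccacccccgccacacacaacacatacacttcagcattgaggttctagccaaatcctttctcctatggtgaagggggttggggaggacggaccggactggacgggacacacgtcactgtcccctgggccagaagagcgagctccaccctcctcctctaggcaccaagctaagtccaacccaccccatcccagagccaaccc
Cldn4, chr5:134946935-134947184, minus strand: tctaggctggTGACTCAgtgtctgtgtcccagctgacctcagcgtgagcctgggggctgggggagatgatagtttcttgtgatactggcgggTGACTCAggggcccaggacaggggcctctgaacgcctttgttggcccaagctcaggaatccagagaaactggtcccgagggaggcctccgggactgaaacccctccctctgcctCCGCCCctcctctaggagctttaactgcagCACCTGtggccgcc
Cldn6, chr17:23679115-23679364, plus strand: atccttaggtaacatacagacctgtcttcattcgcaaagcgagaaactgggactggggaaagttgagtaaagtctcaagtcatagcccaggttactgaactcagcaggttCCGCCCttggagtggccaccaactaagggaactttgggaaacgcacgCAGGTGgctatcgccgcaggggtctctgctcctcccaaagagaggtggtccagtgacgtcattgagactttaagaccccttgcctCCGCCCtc
Cldn7, chr11:69964529-69964778, plus strand: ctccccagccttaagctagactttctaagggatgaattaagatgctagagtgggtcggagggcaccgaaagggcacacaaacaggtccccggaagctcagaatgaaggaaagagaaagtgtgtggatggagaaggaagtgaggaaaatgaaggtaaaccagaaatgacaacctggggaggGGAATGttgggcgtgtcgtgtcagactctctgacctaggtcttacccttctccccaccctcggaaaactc

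None of the 5 motifs stood in all 4 windows shown. The GC box was in those of *Cldn3*, *Cldn4* and *Cldn6*, starting 236 bases before the start site of *Cldn3*, 44 before that of *Cldn4*, and 140 and 8 before that of *Cldn6*, and it was in 32.7% of 32851 mouse windows of this length. The E-box was in the windows of *Cldn4* and *Cldn6*, 14 and 93 bases before the start, and in 17.2% of all windows. The AP-1 letters occurred in the *Cldn4* window only, 240 and 158 bases before the start (4.46% of all windows). The TEAD letters occurred in the window of *Cldn7* shown, 70 bases before the start, and in 12.6% of all windows. The grainyhead letters were in 5.62% of all windows and in none of the 4. The window of a second start site of *Cldn7*, not shown, held the GC box (6 bases before the start), the E-box (97 and 57 bases) and the grainyhead letters (63 bases), so with both start sites counted the GC box was before all 4 genes and the E-box before *Cldn4*, *Cldn6* and *Cldn7*. Matches describe letters and not bound sites, and RefSeq windows were matched for 7 of the 10 claudins.

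*Cldn3* (chromosome 5, 134986214 to 134987476 on GRCm38, plus strand, a single exon) had the largest log2 fold change with 1 FPKM added, while with a pseudocount of 0.1 FPKM that of *Cldn10* was larger (1.81 against 1.79). It was at 9.31, 9.96, 7.21, 8.16 and 9.17 FPKM in WT replicates 1 to 5 and at 24.5, 21.6 and 53.1 FPKM in Lats1/2PanKO replicates 1 to 3. The groups did not overlap, and the Lats1/2PanKO bud with the lowest level was still 2.46 times the WT mean, while replicate 3 was 6.06 times that mean. The WT mean was 8.76 ± 1.08 FPKM (SD, n = 5) and the Lats1/2PanKO mean 33.1 ± 17.4 FPKM (SD, n = 3). The log2 fold change was 1.70 with a standard error of 0.25 (limma p = 8.63e-05, adjusted p = 0.0743), and the exact two-sided permutation test gave p = 0.0179, the smallest that 56 splits of the buds allow. Without Lats1/2PanKO replicate 3 the log2 fold change was 1.30 and the adjusted limma p 0.0140, and the adjusted p ran from 0.0130 to 0.238 over 15 alternatives without a replicate block. With the replicate number as a block the adjusted limma p was 0.451. As a single-exon gene *Cldn3* allows a rough count of fragments, about 86 to 120 in the WT and 278 to 664 in the Lats1/2PanKO libraries. In the deposited table it shares a locus entry with *Wbscr25*, which was at no more than 0.591 FPKM in any bud.

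*Cldn4* (chromosome 5, 134945123 to 134946934, minus strand, a single exon) was at 7.25, 7.49, 5.84, 5.91 and 6.85 FPKM in WT and 15.4, 13.4 and 30.0 FPKM in Lats1/2PanKO buds. Again the groups did not overlap and replicate 3 was the highest. The mean was 6.67 ± 0.76 FPKM (SD, n = 5) in WT against 19.6 ± 9.06 FPKM (SD, n = 3), which is a log2 fold change of 1.35 with a standard error of 0.22 (limma, p = 0.000196, adjusted p = 0.107; exact permutation test, p = 0.0179). Leaving out Lats1/2PanKO replicate 3 gave 1.01 on the log2 scale with an adjusted p of 0.0376 by limma. The adjusted limma p ran from 0.0177 to 0.283 over the alternatives without a replicate block and was 0.451 with it. About 94 to 129 fragments stood behind the WT values and 248 to 538 behind those of Lats1/2PanKO.

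The other genes next to this pair showed smaller differences. *Cldn3* and *Cldn4* lie 39280 bases apart. Beyond *Cldn3*, the entry shared by *Abhd11* and *Abhd11os* lies 7802 bases away, with log2 fold changes of 0.35 and -0.61, and on the far side of *Cldn4* the nearest tested gene, *Wbscr27*, lies 2487 bases away with 0.22. The difference was thus of the same direction as in the claudins for *Abhd11* and *Wbscr27*, whose groups overlapped, and of the opposite direction for *Abhd11os*, whose Lats1/2PanKO values all lay below the WT values.

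*Cldn6* (chromosome 17, 23679348 to 23682446, plus strand) was the most abundant of the 10 claudins in every bud. Its level was 19.6, 23.6, 15.4, 17.5 and 20.4 FPKM in WT and 45.1, 38.4 and 92.5 FPKM in Lats1/2PanKO buds. No WT bud reached the lowest Lats1/2PanKO bud. The group means were 19.3 ± 3.08 (SD, n = 5) and 58.6 ± 29.5 FPKM (SD, n = 3), and the log2 fold change was 1.46 with a standard error of 0.26 (limma, p = 0.000281, adjusted p = 0.109; exact permutation test, p = 0.0179). It was 1.08 without Lats1/2PanKO replicate 3. The adjusted limma p ran from 0.0204 to 0.308 over the alternatives without a replicate block and was 0.479 with it.

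*Cldn9* (chromosome 17, 23682584 to 23684026, minus strand, a single exon) encodes a close relative of CLDN6 and is best known from the inner ear. Its 3′ end lies 138 bases from that of *Cldn6*, on the opposite strand. At 0.598, 1.07, 0.852, 0.362 and 0.192 FPKM in WT and 0.851, 1.01 and 4.33 FPKM in Lats1/2PanKO buds, it was far below *Cldn6*, and the groups overlapped. Only replicate 3 lay outside the WT range (log2 fold change 0.77, standard error 0.35, limma p = 0.0541, adjusted p = 0.459; exact permutation test, p = 0.107), and without it the log2 fold change was 0.29. About 62 fragments stood behind the value in that bud and 2 to 15 behind each of the others. The libraries were stranded and aligned as such. On the other side of *Cldn6*, 1916 bases away, an entry shared by 3 genes held *Tnfrsf12a* with a log2 fold change of 1.43 and no overlap between groups, next to *Hcfc1r1* (-0.03) and *Thoc6* (0.02). Beyond *Cldn9*, at 42310 bases, *Paqr4* had 0.33 without overlap and *Pkmyt1* -0.01 with overlap.

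*Cldn7* (chromosome 11, 69964779 to 69967886, plus strand) varied more among WT buds than *Cldn3*, *Cldn4* and *Cldn6*, at 9.0, 9.22, 10.1, 6.91 and 5.23 FPKM. In Lats1/2PanKO buds it was at 13.1, 11.8 and 31.6 FPKM. The groups did not overlap, but replicates 1 and 2 stood only 1.62 and 1.46 times above the WT mean, against 3.90 times for replicate 3. The means were 8.09 ± 1.98 FPKM (SD, n = 5) and 18.8 ± 11.1 FPKM (SD, n = 3), with a log2 fold change of 1.02 and a standard error of 0.31 (limma, p = 0.00914, adjusted p = 0.291; exact permutation test, p = 0.0179). Without replicate 3 it was 0.59 with an unadjusted limma p of 0.0264. The genes 340 bases downstream, *Ctdnep1* and *Elp5*, had log2 fold changes of -0.14 and -0.23 with no overlap, and *Slc2a4*, on the other side at 16589 bases, had -0.22 and overlapped.

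*Cldn10* (chromosome 14, 118787871 to 118874525, plus strand) encodes a pore-forming claudin whose splice forms conduct cations or anions. Its level was low in WT, at 0.858, 0.289, 1.17, 1.09 and 1.28 FPKM, and higher in all 3 Lats1/2PanKO buds, at 2.27, 3.18 and 4.65 FPKM. Here replicate 2 lay above replicate 1, unlike in *Cldn3*, *Cldn4*, *Cldn6* and *Cldn7*. The mean was 0.938 ± 0.395 FPKM (SD, n = 5) against 3.37 ± 1.20 FPKM (SD, n = 3), which is a log2 fold change of 1.16 with a standard error of 0.24 (limma, p = 0.000810, adjusted p = 0.140; exact permutation test, p = 0.0179). It was 0.96 without replicate 3. The table holds 1 value for the gene, so its splice forms were not told apart. Of the genes beside it, *Dzip1* (-0.09), *Abcc4* (0.72) and *Mir6391* (-1.07) all overlapped between groups.

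*Cldn12* (chromosome 5, 5505015 to 5514976, minus strand), an unusual claudin whose tail lacks the PDZ-binding motif, was the tested member with the smallest difference. It was at 7.02, 9.06, 9.0, 7.30 and 7.80 FPKM in WT and 8.93, 9.37 and 13.6 FPKM in Lats1/2PanKO buds. Replicate 1 lay within the WT range and replicate 2 just above it. The log2 fold change was 0.35 with a standard error of 0.15 (limma, p = 0.0397, adjusted p = 0.415; exact permutation test, p = 0.0714), and without replicate 3 it was 0.17 with an unadjusted limma p of 0.194. Beside it, *Cdk14* had a log2 fold change of -0.21 without overlap and *Gtpbp10* one of -0.02 with overlap.

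The 3 claudins below the filter were near the limit of what these libraries can show. *Cldn8*, a sealing claudin of the distal nephron on chromosome 16, was listed at 0 in WT replicates 1 and 5 and at 0.179, 0.181 and 0.0846 FPKM in replicates 2, 3 and 4, against 0.543, 0.422 and 1.68 FPKM in Lats1/2PanKO. Its groups did not overlap (exact permutation test, p = 0.0179), with at most about 4 fragments in a WT library and about 12, 10 and 39 in the Lats1/2PanKO libraries. *Cldn23*, on chromosome 8, overlapped between groups, at 0.170, 0.406, 0.176, 0 and 0.509 FPKM in WT and 0.470, 0.110 and 1.12 FPKM in Lats1/2PanKO (exact permutation test, p = 0.304). *Cldn18*, the claudin of gastric and lung epithelium on chromosome 9, was listed at 0 in all 3 Lats1/2PanKO buds and 4 WT buds, and at 0.0355 FPKM in WT replicate 4. The stomach markers *Tff2*, *Gkn1* and *Gkn2* were likewise listed at 0 in all buds.

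Summed over the 10 genes, claudin levels were 47.4 to 61.3 FPKM in WT buds (52.8 ± 5.31, SD, n = 5) and 111.1, 99.3 and 232.5 FPKM in Lats1/2PanKO replicates 1, 2 and 3. *Cldn6* alone made up 30.9 to 39.7% of this sum in WT and 38.6 to 40.6% in Lats1/2PanKO. The share of *Cldn3* was 14.4 to 17.8% in WT and 21.8 to 22.8% in Lats1/2PanKO, without overlap, and that of *Cldn12* was 13.0 to 18.0% against 5.84 to 9.44%. *Cldn4* held 11.7 to 13.5% in WT and 12.9 to 13.8% in Lats1/2PanKO, and *Cldn7* held 10.2 to 20.2% and 11.8 to 13.6%, so both overlapped. Together, *Cldn3*, *Cldn4*, *Cldn6* and *Cldn7* accounted for 77.2 to 83.9% in WT and 85.8 to 89.1% in Lats1/2PanKO buds.

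**Figure D2:**
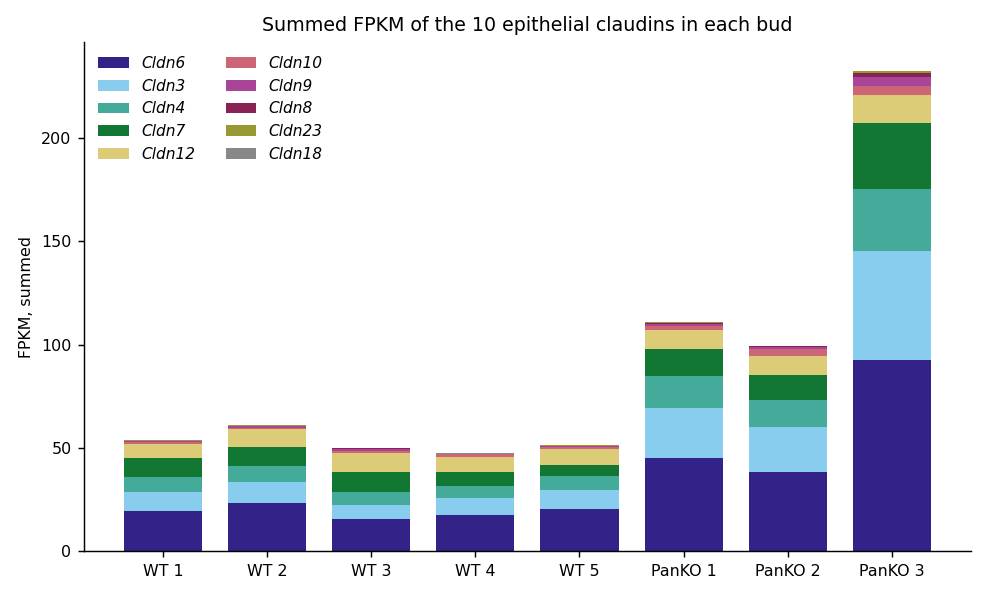
Stacked FPKM of the 10 claudins (y axis, summed FPKM) in each of the 5 WT and 3 Lats1/2PanKO buds (x axis). The sum is between 47.4 and 61.3 FPKM in WT and between 99.3 and 232.5 FPKM in Lats1/2PanKO, and *Cldn6* is the largest segment in each bar.

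The order of the levels was partly the same in both genotypes. *Cldn6* lay above every other claudin in 8 of 8 buds and *Cldn3* above *Cldn4* in 8 of 8. Below *Cldn6*, the WT levels of *Cldn3*, *Cldn7*, *Cldn12* and *Cldn4* were close, and neighbours in this order changed places between buds. *Cldn3* was above *Cldn12* in 4 of 5 WT and 3 of 3 Lats1/2PanKO buds, and *Cldn4* above *Cldn12* in 1 of 5 WT and 3 of 3 Lats1/2PanKO buds. *Cldn10* and *Cldn9* followed at low levels.

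Ratios between claudins of the same bud take out whatever all of them share. The ratio of *Cldn4* to *Cldn6* levels was 0.317 to 0.378 in WT and 0.324 to 0.350 in Lats1/2PanKO buds, so that it stayed within the WT range although both levels differed between genotypes. *Cldn3*, in contrast, was 1.23 to 1.38 times *Cldn4* in WT and 1.59 to 1.77 times *Cldn4* in Lats1/2PanKO buds, and 0.422 to 0.475 times *Cldn6* against 0.543 to 0.574 times. Neither ratio overlapped between genotypes, although *Cldn3* and *Cldn4* are neighbours on the chromosome. *Cldn12* went the other way. *Cldn6* was 1.72 to 2.79 times *Cldn12* in WT and 4.09 to 6.81 times *Cldn12* in Lats1/2PanKO buds.

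Replicate 3 was the highest Lats1/2PanKO bud for 7 of 7 tested claudins, as it was for 15 of 16 epithelial markers, 22 of 35 other tight junction genes and 5129 of all 13777 tested genes. The order of replicate 3, then 1, then 2 held for 4 of the 7 claudins and 12 of the 16 epithelial markers. The spread among Lats1/2PanKO buds was accordingly wide, with coefficients of variation of 52.7% for *Cldn3*, 46.2% for *Cldn4*, 50.3% for *Cldn6* and 58.8% for *Cldn7*, compared with 12.3, 11.4, 16 and 24.5% among WT buds. *Cldn12* varied less among Lats1/2PanKO buds, by 24.2%, while its 11.8% among WT buds lay between *Cldn4* and *Cldn3*.

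Because the level of epithelial RNA differed among buds, each claudin was also expressed relative to the 16 epithelial markers of its own bud. These markers were themselves higher in Lats1/2PanKO, with 16 of 16 at a higher mean log2(FPKM + 1), against 6461 of all 13777 tested genes. An unadjusted limma p under 0.05 was found for 15 of 16 (background 6.29%), and 14 of 16 did not overlap (background 4.46%). The median log2 fold change of these markers was 1.08. Their mean log2(FPKM + 1) was 3.03 to 3.34 in WT and 3.82 to 5.05 in Lats1/2PanKO buds, a difference of 1.15 (exact permutation test, p = 0.0179). *Krt19* (log2 fold change 2.36), *Krt7* (1.51) and *Grhl2* (1.33) had the smallest p of the list. The median log2 fold change of the tested claudins was 1.16, against the median of 1.08 in the epithelial markers. Single claudins ran from 0.35 for *Cldn12* to 1.70 for *Cldn3*.

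The relative level of *Cldn3*, on the log2(FPKM + 1) scale, was 0.17, 0.12, 0.00, -0.05 and 0.25 in WT and 0.56, 0.68 and 0.71 in Lats1/2PanKO buds. It was above the WT range in each Lats1/2PanKO bud, by a mean difference of 0.55 (exact permutation test, p = 0.0179). For *Cldn6* the difference was 0.31 and for *Cldn4* 0.20, again without overlap (exact permutation test, p = 0.0357 for both). *Cldn7* overlapped between genotypes with a difference of -0.13 (exact permutation test, p = 0.571). *Cldn12* was lower relative to epithelium, at -0.19, -0.01, 0.29, -0.20 and 0.04 in WT and -0.80, -0.44 and -1.18 in Lats1/2PanKO, a difference of -0.80 without overlap (exact permutation test, p = 0.0179). These p-values are unadjusted over 7 claudins compared. The marker mean itself was 1.15 higher in Lats1/2PanKO, so a gene that does not differ between genotypes lies lower on this scale. The -0.80 of *Cldn12* thus stands for a smaller rise (0.35) than that of the markers. *Cldn8*, *Cldn18* and *Cldn23*, under the filter, also lay below the WT range here. The share of all tested genes outside the WT range on this scale was not computed. *Cldn9* and *Cldn10* overlapped, but at their low levels the added 1 FPKM compresses the scale. Under 5 other references or scalings *Cldn3* stayed above and *Cldn12* below the WT range, and neither they nor *Cldn4* and *Cldn6* overlapped when any bud was left out. *Cldn4* overlapped when *Epcam* and *Cdh1* alone served as the reference, when only epithelial markers of at least 2 FPKM did, or with a pseudocount of 0.1, and *Cldn6* with that pseudocount.

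**Figure D3:**
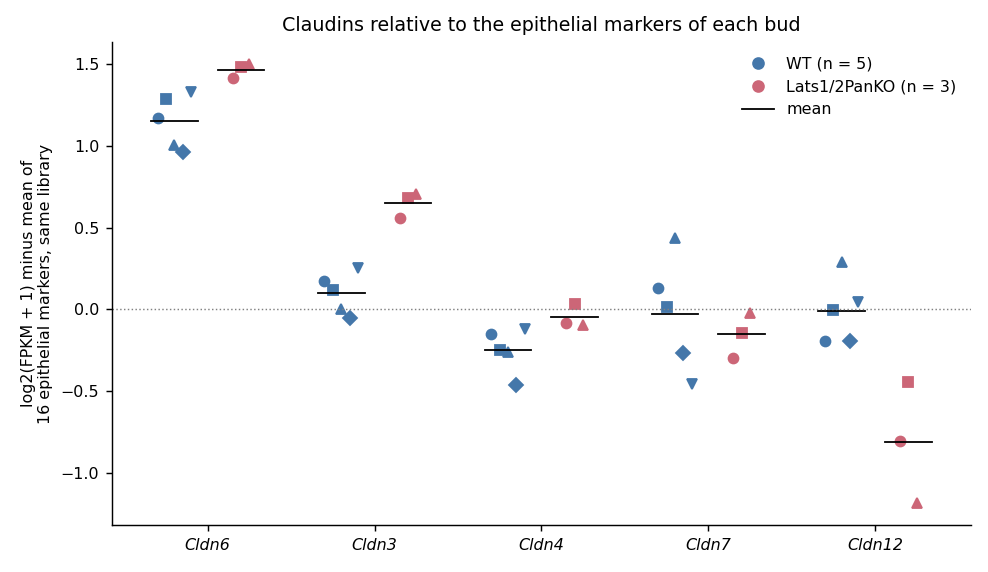
Level of 5 claudins relative to epithelium (y axis, log2(FPKM + 1) of the claudin minus the mean over 16 epithelial markers of the same bud) in WT (blue, n = 5) and Lats1/2PanKO (red, n = 3) buds, with lines at the group means. On this scale *Cldn3* is 0.55 higher and *Cldn12* 0.80 lower in Lats1/2PanKO, both without overlap, while *Cldn7* overlaps. The marker mean itself is 1.15 higher in Lats1/2PanKO.

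Claudin genes outside the 10 were split in direction. Of 17 matched in the table, 6 were tested, 2 with a higher and 4 with a lower mean in Lats1/2PanKO and a median log2 fold change of -0.23. *Cldn5*, the claudin of endothelial junctions, was at 5.79 to 12.8 FPKM in WT and 4.12 to 8.62 FPKM in Lats1/2PanKO (log2 fold change -0.53). It is also counted in the endothelial list below. *Cldn1*, best known from the epidermis, was lower in every Lats1/2PanKO bud (0.301 to 0.522 against 0.574 to 1.15 FPKM, log2 fold change -0.30), as were 3.06% of all tested genes. *Cldnd1*, a claudin domain protein, was the only one of the 6 with an unadjusted p under 0.05 (log2 fold change -0.19, standard error 0.08, by limma), where 4.99% of all tested genes were lower at this threshold. *Cldn11* (0.37), a claudin of myelin and Sertoli cells, *Cldn13* (0.28) and *Cldn20* (-0.26) overlapped between groups. Among the 4 with a lower mean, *Cldn1* and *Cldn20* had Lats1/2PanKO means under 0.5 FPKM (0.447 and 0.383 FPKM). They passed the filter only through the WT buds. *Cldn16*, *Cldn17*, *Cldn24*, *Cldn34a* and *Cldn34d* were listed at 0 in all buds.

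Among 14 tight junction membrane proteins, 8 were higher and 2 lower in Lats1/2PanKO at an unadjusted limma p under 0.05, compared with 6.29% and 4.99% of all tested genes. The median log2 fold change was 0.49, and 0 had an adjusted p under 0.05. *Crb3*, an apical polarity protein, was at 1.74 to 4.34 FPKM in WT and at 5.58, 5.30 and 13.9 FPKM in Lats1/2PanKO (log2 fold change 1.14). *Ildr1*, a protein of tricellular junctions, was at 0.383 to 0.718 FPKM in WT and at 1.59, 0.882 and 3.51 FPKM in Lats1/2PanKO (0.86). *Tmem47*, a distant claudin relative at adherens junctions, was lower in each Lats1/2PanKO bud, at 6.88 to 9.11 against 9.71 to 14.2 FPKM (-0.51). The 3 Lats1/2PanKO values lay above all WT values for 5 of the 14 and below them for 1, compared with 4.46% and 3.06% of all tested genes. *Igsf5* is 1 of the 8 and of the 5, but with a WT mean of 0.358 FPKM it reached the filter only through the Lats1/2PanKO buds and had to differ, so that 7 and 4 remain without it. Leaving out Lats1/2PanKO replicate 3 lowered the log2 fold change of *Crb3* to 0.74 and that of *Ildr1* to 0.52. *Ocln*, chosen after its values were seen because occludin is the classical partner of claudins, had a log2 fold change of 0.91 and overlapped between groups.

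The 21 genes of the junction plaque and its polarity complexes differed less, with a median log2 fold change of 0.15. At an unadjusted limma p under 0.05, 4 were higher and 2 lower, compared with 6.29% and 4.99% of all tested genes, and 0 had an adjusted p under 0.05. *Cgn*, which encodes cingulin, was at 4.46 to 7.24 FPKM in WT and 12.6, 7.68 and 25.2 FPKM in Lats1/2PanKO (log2 fold change 1.18). *Inadl*, the scaffold PATJ, had 0.73 and *Amotl2*, an angiomotin that binds YAP, 0.57, each without overlap. Without Lats1/2PanKO replicate 3 the log2 fold changes were 0.75 for *Cgn*, 0.43 for *Inadl* and 0.39 for *Amotl2*. *Tjp1* and *Tjp3*, which encode the scaffolds ZO-1 and ZO-3, were picked after their values were seen. *Tjp1* was abundant and overlapped between groups (47.2 to 58.1 FPKM in WT, 52.6 to 63.6 in Lats1/2PanKO, log2 fold change 0.15), while the scarcer *Tjp3* was at 0.452 to 0.967 and 1.00 to 3.19 FPKM (0.61) without overlap.

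**Figure D4:**
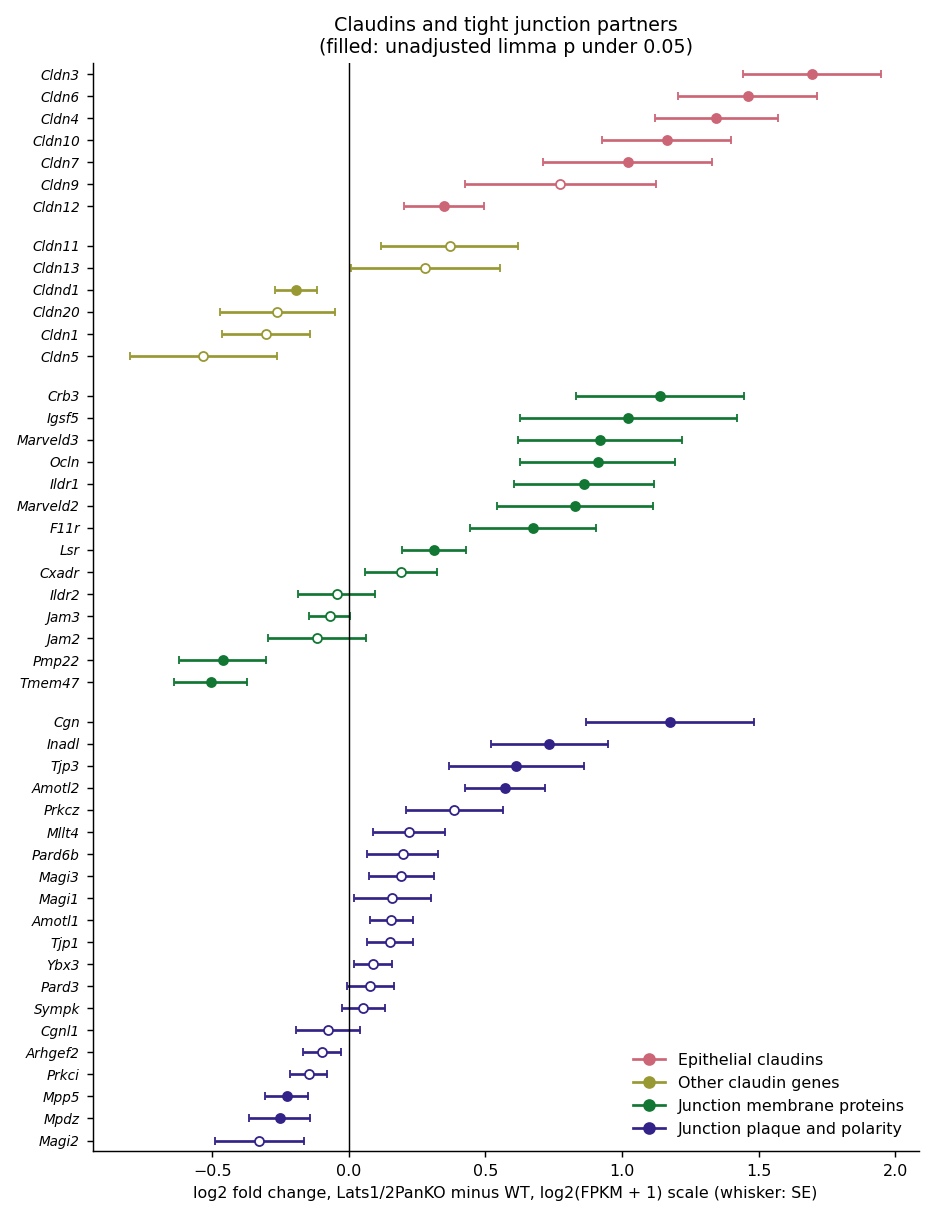
log2 fold change of Lats1/2PanKO minus WT (x axis, log2(FPKM + 1) scale, whiskers for the standard error) for the 7 tested epithelial claudins, 6 other claudin genes, 14 junction membrane proteins and 20 plaque and polarity genes. Filled points have an unadjusted limma p under 0.05, and the epithelial claudins lie between 0.35 and 1.70 while the plaque genes center near 0.15.

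Of 16 transcription factors known to act on epithelial junction genes, 12 were tested, 5 with a higher and 7 with a lower mean. *Grhl2*, a grainyhead factor that activates claudin genes in epithelia, was at 1.20 to 2.77 FPKM in WT and 6.18, 4.46 and 10.7 FPKM in Lats1/2PanKO, and *Ovol2*, a repressor of mesenchymal genes, had a log2 fold change of 0.90, both without overlap. *Twist2*, a mesenchymal factor, was lower in each Lats1/2PanKO bud (-0.67). At an unadjusted limma p under 0.05, 3 were higher and 3 lower, compared with 6.29% and 4.99% of all tested genes, and 0 had an adjusted p under 0.05. *Grhl3*, 1 of the 3 lower genes, had a mean under 0.5 FPKM in Lats1/2PanKO (0.391 FPKM) and passed the filter only through the WT buds. The log2 fold change of *Twist2* was -0.42 without Lats1/2PanKO replicate 3. This list shares genes with other marker lists, and *Grhl2* is also 1 of the 16 epithelial markers, so its difference is not separate from theirs.

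The other marker lists had smaller median differences than the 1.08 of the epithelial markers. Their counts at an unadjusted limma p under 0.05 stand against 6.29% higher and 4.99% lower genes among all tested. Of 12 tested endothelial markers, 12 had a lower mean in Lats1/2PanKO (median log2 fold change -0.38, 3 with an unadjusted limma p under 0.05, summed level 169 to 264 FPKM in WT and 121 to 186 FPKM in Lats1/2PanKO). Of 12 mesenchymal markers, 10 were lower (median -0.43), 3 of them and 1 higher gene at that threshold. Of 9 tested liver markers, 9 were higher (median 0.50, 3 at that threshold, summed level 113 to 197 and 161 to 462 FPKM). Among them, *Apob*, with a WT mean of 0.456 FPKM, reached the filter only through the Lats1/2PanKO buds and had to have a higher mean FPKM there. Of 14 pancreatic progenitor genes, 13 were higher (median 0.59, 6 at that threshold). Red blood cell markers had a log2 fold change above 0 in 9 of 9, although the mean FPKM of *Hbb-bh1* was lower in Lats1/2PanKO (median 0.49, 0 at that threshold, summed level 2655 to 15820 FPKM in WT and 8020 to 10230 FPKM in Lats1/2PanKO). Leukocyte markers had a median of 0.24 over 8 genes, nerve and neural crest markers 0.31 over 8, and stomach and duodenum markers 0.10 over 3 tested. In the last list, *Sox2* and *Vil1*, with WT means of 0.498 and 0.474 FPKM, likewise reached the filter only through the Lats1/2PanKO buds. The 5 tested mesothelial markers had a median of -0.34, with *Krt19*, which is also in the epithelial list, the single one that was higher. The part of these other cells in the claudin differences was not tested.

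The genes whose values followed each claudin most closely over the 8 buds were found as those with the smallest mean absolute difference in log2(FPKM + 1), after centring on the WT mean, among all tested genes. For *Cldn3* these were *Klhdc7a* (0.103), *Adamts15* (0.104) and *Cldn6* (0.123). With means of 0.194 FPKM in WT and 2.90 FPKM in Lats1/2PanKO, *Klhdc7a* reached the filter only through the Lats1/2PanKO buds and had to differ. *Cldn4* was closest to *Sox9* (0.0726), the progenitor transcription factor, to *Spon1* (0.0767) and to *Glis3* (0.0886), with *Cldn6* at rank 4. *Cldn6* was closest to *Glis3* (0.0849), *Cldn4* (0.0959) and *Adamts15* (0.107). *Cldn4* stood at rank 7 for *Cldn3*, and *Cldn3* at rank 25 for *Cldn4* and rank 5 for *Cldn6*.

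*Cldn7* and *Cldn10* had other neighbours by this measure. *Cldn7* was closest to *Rnf43* (0.109), *Cpb2* (0.137) and *Shtn1* (0.137), with *Cldn4* at rank 160. *Cldn10* was closest to *Ctgf* (0.164), the YAP target also named CCN2, *Scube3* (0.171) and *Wfdc2* (0.224), and *Cldn4* stood at rank 120. Like *Cldn10*, *Ctgf* was low in WT and higher in Lats1/2PanKO, with means of 3.63 and 10.7 FPKM. All these distances rest on the same 8 libraries and include the difference between genotypes. The added 1 FPKM compresses the scale for genes low in WT, such as *Klhdc7a*, *Glis3* (WT mean 0.771 FPKM) and *Cpb2* (0.635 FPKM). For such genes a small distance does not mean an equal ratio between genotypes.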

How the data were processed

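Per the labels and the methods, total RNA from each bud was depleted of ribosomal RNA and made into stranded paired-end libraries. The authors trimmed reads with cutadapt 1.12, aligned them to mm10 (GRCm38) with TopHat2 2.1.0 and deposited FPKM per gene from Cuffdiff 2.2.1, which were used as deposited. The methods state quantile normalization, but the upper quartiles of genes above 0 ran from 19.8 to 21.5 FPKM, so the columns do not share a distribution. Genotypes came from the sample labels. FPKM are not counts, so log2(FPKM + 1) of the 13777 genes that reached a mean of 0.5 FPKM was fitted in limma 3.58.1 (R 4.3.3), allowing for a mean-variance trend, with Benjamini-Hochberg adjustment and a threshold of 0.05. Single values were compared by exact two-sided permutation tests over 56 splits, 5 against 3. On simulated data for this comparison, 197 of 200 genes changed by a log2 fold of 2 were recovered among 13777, with 6 unchanged genes called. That fold is larger than any of the claudins, which ran from 0.35 to 1.70, and only genes with a WT mean log2(FPKM + 1) above 2 were changed. The simulated noise was independent among genes, with no bud standing apart. The simulation therefore does not show how often changes of the size seen in claudins are found. Fragments of single-exon claudins were estimated from the FPKM steps of single-exon genes of at least 1500 bases, on which 15 to 21 of 38 to 48 low genes per library fell, and they are approximate.

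The 10 claudins and all gene lists were chosen with earlier results of these data known. Named genes are all 10 claudins, the tested other claudins, from each list the 3 genes of smallest p, the nearest tested genes on each side of a tested claudin, and the 3 closest patterns of each claudin whose groups did not overlap. Locus entries of the deposited table can hold several genes, so coordinates are those of RefSeq on GRCm38.p6. The settings varied were the pseudocount (0.1), the filter (2 FPKM or none), the scaling (quantile or median-ratio), array weights, no trend, the replicate number as a block, *Epcam* and *Cdh1* as reference, and each bud left out. Epithelial markers of at least 2 FPKM as reference were added after seeing the data. A gene of the plaque list is included in the counts and median of that list but is not reported singly here or drawn. Figures were drawn with matplotlib 3.10.9.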

Additional observations from a re-analysis of the deposited data

Results flagged for a closer look

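*Cldn18* was above 0 in 1 of 5 WT buds, replicate 4, at 0.0355 FPKM, and listed at 0 in the other WT and all Lats1/2PanKO buds, and Dixon's criterion set it apart from its group. With the other 4 values at 0, any value above 0 meets that criterion, so the rate of about 1 in 20 groups that chance gives does not apply here.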

How the results depend on the processing

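The tested claudins kept their direction under every alternative in which they were tested, which for *Cldn9* and *Cldn10* leaves out the minimum mean of 2 FPKM, and the number with an unadjusted p under 0.05 stayed within 1.5 times the 6 reported. The number with an adjusted p under 0.05 by limma was 0 as reported, 1 with a pseudocount of 0.1 FPKM, 3 with array weights and 0 to 2 as each bud was left out, where the 2, *Cldn3* and *Cldn4*, came without Lats1/2PanKO replicate 3. Over all genes the adjusted count was 2 as reported (1553 at an unadjusted p under 0.05), 18 with a pseudocount of 0.1 FPKM, 174 with array weights and 0 to 19 as each bud was left out. Of the claudins, 3 lay above the WT range relative to epithelial markers as reported, and 1 with a pseudocount of 0.1 FPKM. These counts have no background, since the relative scale was not computed for all tested genes. *Vil1*, a marker of gut epithelium at low FPKM, had a log2 fold change of 0.10 that turned to -0.000735 with array weights and ran from -0.11, without Lats1/2PanKO replicate 3, to 0.23 as each bud was left out. The cause of these changes was not tested.

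The labels number both genotypes from 1 and do not state that the numbers pair the buds. The deviations of same-numbered buds from their group means correlated at 0.0855, -0.0969 and 0.0685, and those of other pairs at -0.11 to 0.135. Such correlations cannot settle whether buds were paired, and the reported fit used no block. With the replicate number as a block, 8 of 35 tight junction partners had an unadjusted limma p under 0.05 against 16 without it. Among all 13777 tested genes, 1266 did with the block and 1553 without it. *Cldn12* had an unadjusted limma p of 0.0769 with the block. FPKM carry no counts, so counting error enters only through the spread between buds, and 3 against 5 buds limit every comparison.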
